A study of Caenorhabditis elegans with 6 samples.

Results

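The proteasome is built from subunits that are each encoded by a separate gene, and the transcripts of 31 of these genes were followed in embryos of the nematode Caenorhabditis elegans. They were picked by sequence name from the 46659 rows of a read count table. The pas genes (7) and pbs genes (7) encode the core particle, and the rpt genes (6) and rpn genes (11) encode the cap that sits on its ends. All 31 were found, and all 31 passed the filter on low counts that left 17365 rows for testing. Their counts ran from 885 to 22814 per library.

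RNA came from embryos of 2 genotypes, with 3 libraries labelled as biological replicates 1 to 3 in each. The controls were ced-3(n1286) single mutants, and the other embryos were dot-1.1(knu339); ced-3(n1286) double mutants, so every library lacks a wild-type ced-3. DOT-1.1 belongs to the DOT1L family of histone methyltransferases, and CED-3 is the caspase that executes programmed cell death. Animals of both genotypes were grown at 20 °C, and eggs were freed from egg-laying adults with alkaline hypochlorite, so each library mixes the embryonic stages that the adults carried. The comparison addresses how the loss or change of dot-1.1 alters expression on a background that is already mutant for ced-3.

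The dot-1.1 transcript was present in every library, at 66.9, 34.8 and 45.9 CPM (read counts scaled to the size of the library) in the single mutants and 62.6, 28.6 and 36.2 CPM in the libraries labelled double mutant. Those ranges overlapped, and the difference did not pass edgeR's quasi-likelihood test (log2 fold change -0.21 ± 0.33 SE, adjusted p = 0.806). No source used here says what knu339 changes in the gene, so this level does not check the labels, and every direction below rests on them. Library totals were 66316445 to 77957224 counts. In each of the 3 numbered pairs, libraries of the same replicate number deviated from their genotype means together (correlations of 0.17 to 0.32 over all tested genes, against -0.24 to 0.059 between different numbers). Each result is therefore given from a fit without the replicate number and, where it differs, from a fit with the number as a block.

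The proteasome degrades proteins that carry chains of ubiquitin. Its core is a barrel of stacked rings: outer alpha rings (PAS) that gate the entrance, and inner beta rings (PBS), in which the beta subunits PBS-1, PBS-2 and PBS-5 are the homologues of the catalytic ones of yeast and mammals. The cap holds a ring of ATPases (RPT), which unfold substrates and thread them into the core. Its other subunits (RPN) include scaffolds, receptors for ubiquitin and RPN-11, the enzyme that removes the chains. Each ring and each cap holds its subunits in fixed proportion. In C. elegans, embryos need the proteasome for the early divisions and for clearing maternal proteins at the switch from egg to embryo, and a form of the transcription factor SKN-1 raises the subunit genes when proteasome function fails.

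Levels of different subunits were set side by side as CPM per kilobase of exon, which takes out the length of the transcript. In the single mutants pas-5, an alpha subunit, was highest at 111 ± 26.6 CPM per kb (SD, n = 3), followed by the alpha subunit pas-3 at 109 ± 20.1 CPM per kb and the beta subunit pbs-7 at 104 ± 23.3 CPM per kb. The lowest were pbs-6, another beta subunit, at 35.6 ± 7.66 CPM per kb, and pas-1 at 37.1 ± 15.8 CPM per kb. Neighbours in this order did not differ beyond their spread: pas-5, pas-3 and pbs-7 overlapped fully from library to library.

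In the single mutant means the highest subunit was 3.12-fold above the lowest. The 25 subunits in the middle of the order lay within 2.01-fold of each other, from 47 to 94.4 CPM per kb. Library by library, the highest over the lowest ran from 2.82-fold in double mutant replicate 3 to 7.43-fold in double mutant replicate 1, where pas-1 was lowest. By subcomplex, the median of the single mutant means was 56.6 CPM per kb for the alpha ring, 62.7 CPM per kb for the beta ring, 75.0 CPM per kb for the ATPase ring and 64.7 CPM per kb for the other cap subunits. The double mutants gave 49.8, 61.6, 73.1 and 64.6 CPM per kb in the same order. In every library the median core subunit was below the median cap subunit, at 0.813 to 0.969 of it. The rings differed in width: the alpha ring spanned 37.1 to 111 CPM per kb and the beta ring 35.6 to 104 CPM per kb, whereas the ATPases lay between 52.1 and 94.4 CPM per kb and the other cap subunits between 50.3 and 82.1 CPM per kb.

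**Figure D1:**
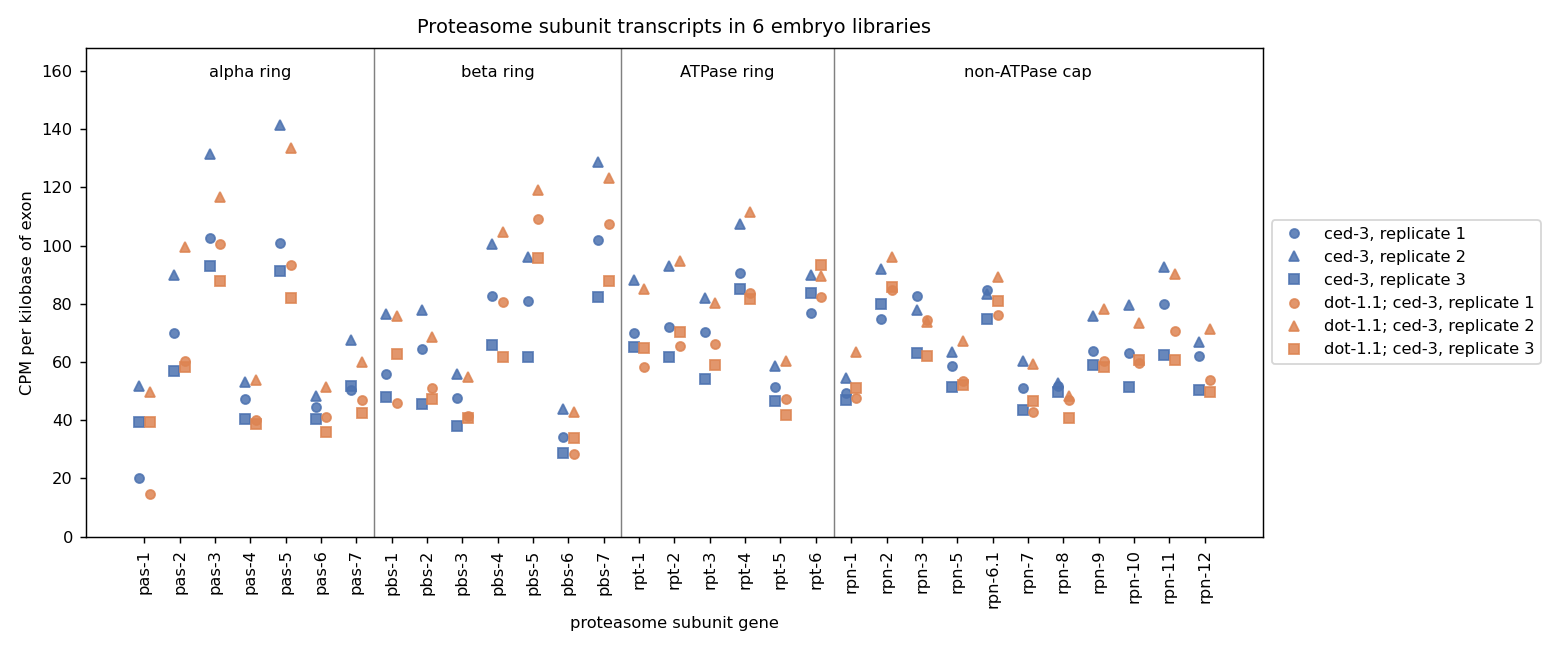
Level of each subunit transcript (CPM per kilobase of exon, linear axis) in the 6 libraries, grouped by ring or cap part; colour gives the genotype and the symbol shape the replicate number. The triangles of replicate 2 lie on top for most subunits in both colours, pas-1 is lowest in replicate 1, and pbs-5 is the subunit whose orange points sit clearly higher than the blue ones of the same shape.

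Most subunits were at nearly the same level in both genotypes, and pbs-5 was the one that stood out. Summed over all 31 genes, the level was 2704, 3207 and 2419 CPM in the single mutants and 2566.5, 3243.5 and 2516 CPM in the double mutants. The ranges overlapped almost completely, and the means were 2777 ± 399 and 2775 ± 406 CPM (SD, n = 3 each). Without the block 0 of 31 subunits passed edgeR's quasi-likelihood test at an adjusted p under 0.05, where 0.0806% of all tested genes passed. At an unadjusted p under 0.05 there was 1 subunit (12.1% of all tested genes), and DESeq2 without the block called 0 of 31 (2.38% of all genes it tested, 1.93% higher and 0.449% lower). With the block 1 subunit rose (pbs-5) and 0 fell, against 4.01% of all tested genes called (2.57% higher and 1.45% lower), so the share of subunits called was near the background. DESeq2 with the block called the same single subunit, against 12.9% of all genes it tested (6.35% higher and 6.52% lower).

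The log2 fold changes, double over single mutant, had a median of -0.03 (-0.04 with the block), beside -0.02 over all tested genes. They spread by an SD of 0.11, beside 0.55 over all tested genes, and the SD without pbs-5 was 0.076. Of the 31 estimates without the block, 21 lay within 0.1 of 0 and 30 within 0.2. Smaller than their own standard error were 28 without the block and 18 with it. The sign of some moved with the scaling: 9 were above 0 with TMM scaling, 10 with RLE size factors and 15 with library totals alone. Embryo libraries are bulk samples, so fewer cells of a type and less RNA per cell cannot be told apart.

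These data also bound how large a difference could have gone unseen. With the block, the 95% interval of the fold change lay within 1.5-fold of no change in either direction for 30 of 31 subunits, all but pbs-5. Without it, 27 intervals did so, and 30 lay within 2-fold. The exception there was pas-1, whose interval ran from 0.423-fold to 2.05-fold.

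**Figure D2:**
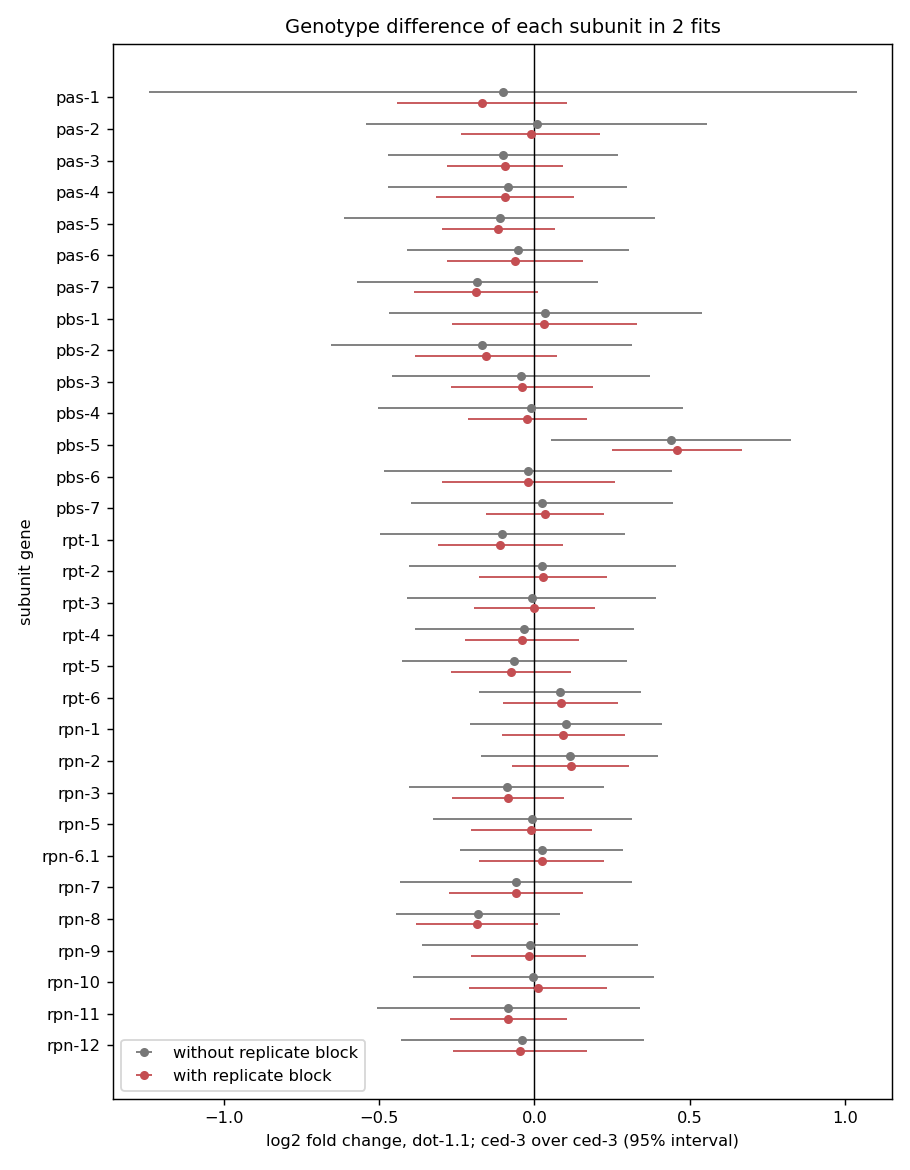
Log2 fold change of each subunit, dot-1.1; ced-3 over ced-3, with its 95% interval, from the edgeR fit without (grey) and with (red) the replicate block, 3 libraries per genotype. Only the intervals of pbs-5 lie wholly above 0, and the interval of pas-1 shrinks most when the block is added.

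Of the 7 alpha ring genes neither edgeR nor DESeq2 called any in either fit. Their median log2 fold change was -0.10, and 6 of 7 estimates were below 0. The lowest was pas-7 (ZK945.2, chromosome II, 10098782 to 10099854), at 49.5, 66 and 50.8 CPM in the single mutants and 45.9, 58.7 and 41.7 CPM in the double mutants. In all 3 pairs the double mutant had the lower value while the groups overlapped, and the gene did not pass in edgeR (log2 fold change -0.18 ± 0.17 SE, adjusted p = 0.673, and -0.19 ± 0.087, adjusted p = 0.229 with the block). Its exons overlap those of lact-2 on the other strand by 4 bases. The top alpha genes also had lower estimates in all 3 pairs. For pas-5 (F25H2.9, chromosome I, 10566350 to 10567300) the levels were 86.2, 120.9 and 78 CPM in the single mutants and 79.7, 114.1 and 70.2 CPM in the double mutants. For pas-3 (Y110A7A.14, chromosome I, 5105110 to 5106048) they were 91.6, 117.5 and 83.0 CPM against 89.7, 104.3 and 78.4 CPM. In both genes the distance between replicates was several times the distance between genotypes, and the blocked log2 fold changes were -0.12 ± 0.079 SE and -0.09 ± 0.081 SE.

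In the beta ring 6 of 7 genes lay between -0.17 and 0.035 in log2 fold change, and the seventh, pbs-5, stood apart from them. Among the other putative catalytic subunits, pbs-1 (K08D12.1, chromosome IV, 1708814 to 1709745) was at 46.0, 62.8 and 39.5 CPM in the single mutants and 37.8, 62.4 and 51.6 CPM in the double mutants. For pbs-2 (C47B2.4, chromosome I, 12967216 to 12968280) the levels were 65.0, 78.4 and 45.9 CPM against 51.6, 68.9 and 47.8 CPM. Neither gene moved one way in all 3 pairs, and the groups overlapped in both. Their blocked log2 fold changes were 0.03 ± 0.13 SE and -0.15 ± 0.099 SE (adjusted p = 0.908 and 0.377, edgeR).

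pbs-5 (K05C4.1, chromosome I, 14719167 to 14720477, minus strand) encodes the homologue of the beta subunit with chymotrypsin-like activity. Its level was 85.9, 101.7 and 65.4 CPM in the single mutants and 115.7, 126.3 and 101.4 CPM in the double mutants. The groups touched, since the lowest double mutant library lay just under the highest single mutant library, but the double mutant was higher in all 3 pairs, by 1.35-fold, 1.24-fold and 1.55-fold. Over the same pairs the other 30 subunits had median ratios of 0.912, 0.990 and 1.01. None of them reached the ratio of pbs-5 in any pair: their highest were 1.13, 1.17 and 1.31. As pbs-5 was singled out from these same values, its rank among the subunits is a description and not a test. Without the block the difference did not pass (log2 fold change 0.44 ± 0.17 SE, adjusted p = 0.368, edgeR), and with it it did (0.46 ± 0.091 SE, 1.37-fold with a 95% interval of 1.19 to 1.59, adjusted p = 0.0399). The next largest blocked change among the subunits was the -0.19 of pas-7.

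The call for pbs-5 rested on the pairing, and it did not hold in edgeR without pair 1 or pair 3, though the estimate stayed above 0. With the block, DESeq2 gave an adjusted p of 0.00175. When pair 1 was left out the blocked edgeR fit gave an adjusted p of 0.228, without pair 3 0.20, and without pair 2 0.000174, with log2 fold changes of 0.40 to 0.53. The unadjusted p in the same order were 0.00799, 0.0135 and 3.95e-06. Over all genes 11, 181 and 2476 were called in those fits, so the adjusted p moved with the whole fit. In fits without the block that left out 1 library each, the adjusted p ran from 0.330 to 0.626 and the log2 fold change from 0.29 to 0.60. Per kilobase, pbs-5 was the ninth subunit in the single mutants (79.6 ± 17.2 CPM per kb) and the first in the double mutants (108 ± 11.8 CPM per kb; SD, n = 3 each). The genes next to it on the same strand, chosen after the values of pbs-5 had been seen, were not called in edgeR. K05C4.2, which ends 110 bases upstream, had a blocked log2 fold change of 0.03 ± 0.089 SE (adjusted p = 0.881, edgeR). That of dus-2, 655 bases downstream, was -0.10 ± 0.10 SE (adjusted p = 0.587, edgeR).

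The 6 ATPase ring genes lay between -0.10 and 0.083 in log2 fold change, and 0 were called in either edgeR fit or by DESeq2. rpt-4 (F23F1.8, chromosome II, 42207 to 46216), the ATPase with the highest level per kilobase, was at 132.2, 156.9 and 124.5 CPM in the single mutants and 122.3, 162.9 and 119.2 CPM in the double mutants. rpt-3 (F23F12.6, chromosome III, 6489793 to 6491282) was the closest to no difference, at 95.2, 111.2 and 73.3 CPM against 89.5, 108.7 and 79.8 CPM, and its blocked fold change was 1.00 with a 95% interval of 0.874 to 1.14. The groups overlapped in both genes. rpt-6 (Y49E10.1, chromosome III, 12370456 to 12372607) was the steadiest ATPase, at 108.0, 126.6 and 117.5 CPM against 115.7, 126.1 and 131.2 CPM. Exons of rpt-2, rpt-4 and rpt-6 overlap those of fos-1, rpoa-49 and glrx-5 on the other strand by 29, 103 and 26 bases.

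Of the 11 other cap genes neither tool called any in either fit, and their estimates ran from -0.18 to 0.11. The scaffold rpn-2 (C23G10.4, chromosome III, 6199184 to 6202594) was, with pbs-5, the only subunit higher in all 3 pairs, at 236.4, 290.8 and 252.7 CPM against 268.1, 304.0 and 271.6 CPM, and the groups overlapped (blocked log2 fold change 0.12 ± 0.081 SE, adjusted p = 0.418, edgeR). rpn-8 (R12E2.3, chromosome I, 4175319 to 4177271), which encodes the partner of RPN-11 in the lid of the cap, was at 63.9, 65.2 and 61.3 CPM in the single mutants and 57.8, 59.6 and 50.4 CPM in the double mutants. It was the only one of the 31 genes whose groups did not overlap, where 18.5% of all tested genes did not (7.91% lower in the double mutants). Its difference did not pass in either edgeR fit (log2 fold change -0.18 ± 0.12 SE, adjusted p = 0.542, and -0.19 ± 0.085, adjusted p = 0.225 with the block).

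The deubiquitinase gene rpn-11 (K07D4.3, chromosome II, 4043055 to 4044546) was at 98.7, 114.4 and 76.9 CPM in the single mutants and 87.3, 111.4 and 75.0 CPM in the double mutants. The ubiquitin receptor gene rpn-10 (B0205.3, chromosome I, 10730712 to 10732424) was at 81.4, 102.7 and 66.4 CPM against 76.9, 94.8 and 78.2 CPM. Both overlapped between genotypes, and their blocked log2 fold changes were -0.08 ± 0.082 SE and 0.01 ± 0.097 SE. Over all subunits 2 were higher in the double mutant in 3 of 3 pairs (22.6% of all tested genes were) and 7 were lower in 3 of 3 (25.3% of all tested genes), namely pas-3, pas-5, pas-7, rpt-1, rpn-3, rpn-8 and rpn-11. Exons of 11 of the 31 genes overlap another gene. The longest stretch was 394 bases between rpn-7 and nemt-1 on the other strand, and pbs-7 shares 70 bases with K07A12.5 on the same strand, so part of their counts may belong to the neighbour. The kit kept the strand, but no source used here says whether counting used it.

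Differences between replicate numbers were wider than those between genotypes and ran the same way in nearly all subunits. Replicate 2 had the highest level within both genotypes for 28 of 31 subunits, where 20.5% of all tested genes had this pattern, and replicate 3 the lowest for 19 of 31 (20.5% of all tested genes). With RLE size factors the first count was 28 and with library totals alone 29. In 26 subunits both replicate 2 libraries lay above the other 4 libraries, as they did in 11.7% of all tested genes. All 14 core genes were highest in replicate 2 in both genotypes, and of the 17 cap genes 14 were. The exceptions were rpn-3, which was highest in replicate 1 in both genotypes, rpn-6.1, which was so in the single mutants, and rpt-6, which was highest in replicate 3 in the double mutants.

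The ratio of replicate 2 to replicate 3 had a median of 1.35 over the subunits in the single mutants (range 1.06 to 1.71) and of 1.34 in the double mutants (0.961 to 1.71). Library totals in replicates 1, 2 and 3 were 68832040, 77957224 and 73046841 counts for single mutants and 66316445, 72861997 and 75279479 counts for double mutants, and their part in the pattern was not tested. An edgeR F test of the replicate number in the blocked fit, chosen after the pattern had been seen, called 6 of 31 subunits at an adjusted p under 0.05, where it called 3.98% of all tested genes. They were pas-1 (adjusted p = 0.00989), pas-5 (0.021), pbs-4 (0.0271), pas-2 (0.0305), rpn-11 (0.0441) and pbs-7 (0.0454), 5 of the core and 1 of the cap.

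pas-1 (C15H11.7, chromosome V, 14421566 to 14422618, minus strand) varied far more between replicates than any other subunit. Its level was 19.2, 49 and 37.2 CPM in the single mutants and 13.9, 46.9 and 37.4 CPM in the double mutants. Replicate 1 was the low one in both genotypes. The genotypes lay close together in replicates 2 and 3, and in replicate 1 the double mutant was lower, at 0.725 of the single mutant, the lowest ratio of any subunit in that pair. Replicate 2 was 2.55-fold above replicate 1 in the single mutants and 3.37-fold above it in the double mutants, whereas the other 30 subunits ranged from 0.943-fold to 1.4-fold and from 0.991-fold to 1.65-fold. Its SD over the 6 libraries was 0.74 in log2 CPM, and the next largest was the 0.34 of pas-2.

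With the replicate number in the fit, the genotype difference of pas-1 was -0.17 ± 0.12 SE in log2 fold change (adjusted p = 0.420, edgeR), against -0.10 ± 0.48 SE without it. No exon of another gene overlaps it. The neighbours in the same direction were rpoa-12, 106 bases upstream, at 17.9, 21.2 and 14 CPM in the single mutants and 14.3, 16.9 and 13 CPM in the double mutants, and dhs-22, 125 bases downstream, at 99.0, 106.1 and 81.6 CPM against 84.1, 78.3 and 70.7 CPM. Neither was low in replicate 1, and the replicate number did not pass for them (adjusted p = 0.177 and 0.233, edgeR F test). They were chosen for their position, after the values of pas-1 had been seen.

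**Figure D3:**
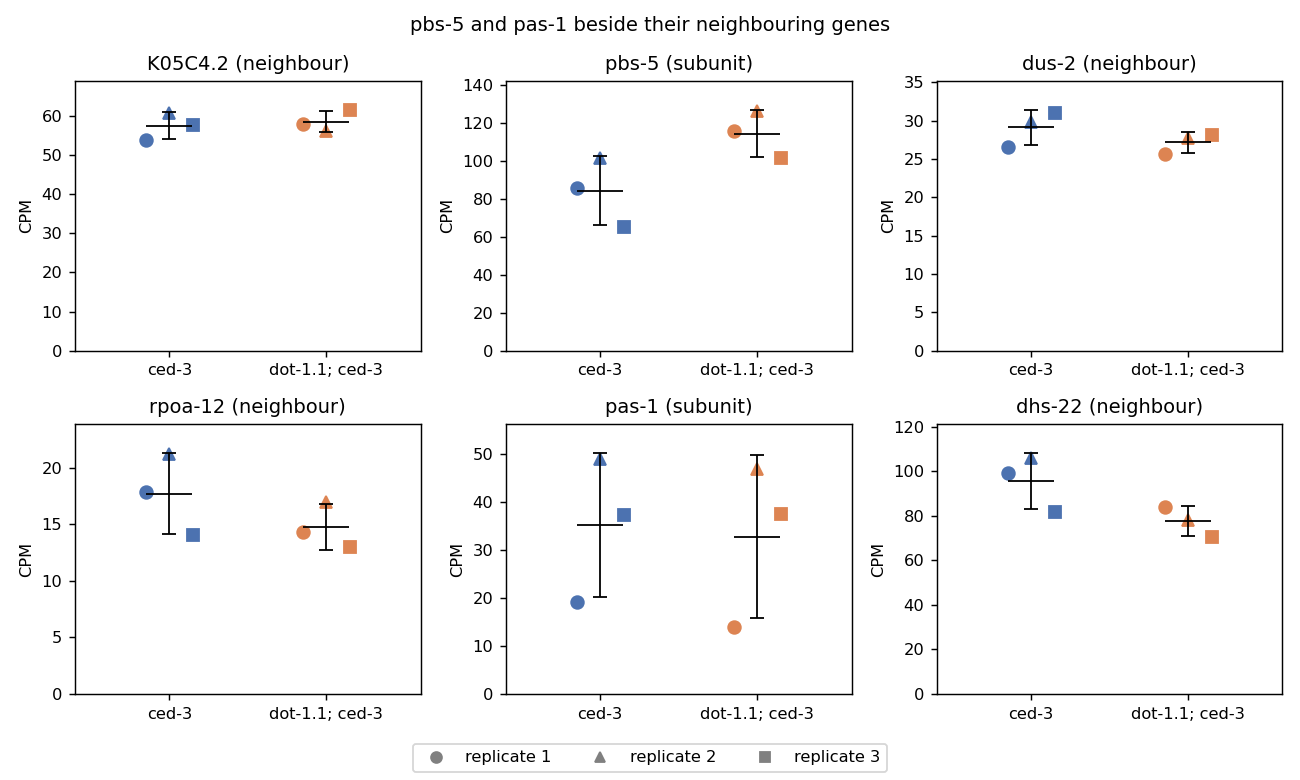
Level (CPM, linear axes from 0, a scale for each panel) of pbs-5 and pas-1 in the middle column, each between its upstream (left) and downstream (right) neighbour on the same strand; symbols are libraries by replicate number, and the black bars give the mean ± SD of 3 libraries. pbs-5 is higher in the double mutants while K05C4.2 and dus-2 are level, and the circles of replicate 1 are low for pas-1 but not for rpoa-12 or dhs-22.

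How tightly the subunits moved together was described from the deviation of each gene's log2 CPM from its own mean over the 6 libraries. The mean profile of the 31 genes was -0.02, 0.25 and -0.19 in single mutant replicates 1, 2 and 3 and -0.15, 0.26 and -0.15 in the double mutants. This common profile held 59.7% of all the variance of the subunits around their own means, and 72.9% without pas-1. The same share over all tested genes was 1.2%. Scaling of the libraries keeps the mean profile of all genes near 0, so that value is no yardstick for a short list. Once the mean of each replicate number was taken out, the common profile held 19% of what was left, so most of the shared movement ran along the replicate number. For the median subunit the replicate number accounted for 88.9% of the variance over the 6 libraries and genotype for 2.31%, beside 47.2% and 21.9% for the median of all tested genes.

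The mean profile of each ring and of the other cap genes was highest in replicate 2 in both genotypes. The order of the other libraries varied: in the single mutants the alpha ring was at -0.10 in both replicates 1 and 3, and the beta ring at -0.01 and -0.35. The common profile held 56% of the variance in the alpha ring, where pas-1 went its own way, 76.9% in the beta ring, 77.3% in the ATPase ring and 71.0% in the other cap genes. The core swung more widely than the cap: in replicate 2 its genes averaged 0.33 and 0.32 above their means in the single and double mutants, and those of the cap 0.19 and 0.21. The steadiest subunit was rpn-6.1, which encodes a lid subunit that bridges cap and core, with an SD of 0.096 in log2 CPM. It was at 139.3, 137.0 and 123.0 CPM in the single mutants and 125.6, 147.0 and 133.3 CPM in the double mutants. In only 2 genes, pbs-5 (55.1%) and rpn-8 (58.0%), did genotype account for more of the variance than the replicate number.

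**Figure D4:**
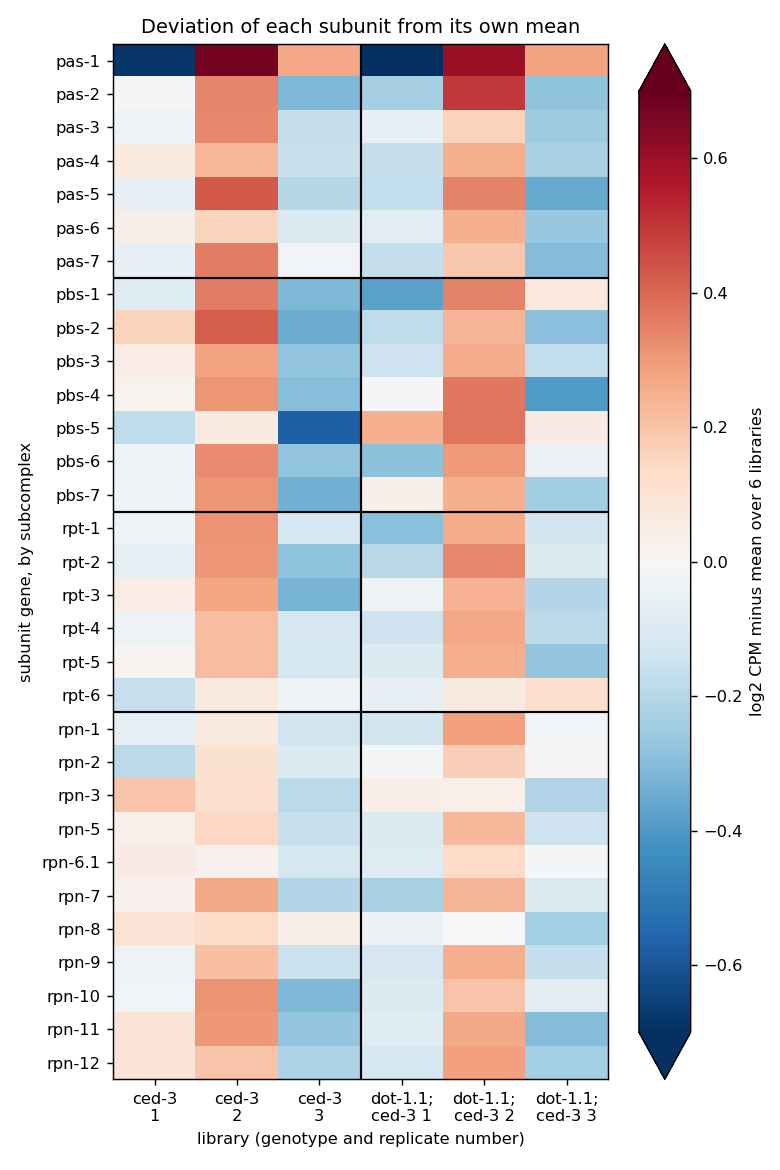
Deviation of each subunit's log2 CPM from its own mean over the 6 libraries (colour; the scale is clipped at 0.7 in either direction), with subunits in rows by ring or cap part and libraries in columns. The columns of replicate 2 are red for nearly all rows in both genotypes, pas-1 has the strongest colours, and the pbs-5 row is red in all 3 double mutant cells and, in the single mutants, blue in replicates 1 and 3 and faintly red in replicate 2.

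Other multi-subunit complexes served as a yardstick. The CCT chaperonin, which folds actin and tubulin, had a common profile share of 83.4% over 8 genes, with a different shape: its mean deviation was highest, at 0.45, in double mutant replicate 1. The COP9 signalosome, a complex related to the lid that acts on cullin ligases, had 61.9% over 6 genes and was highest in replicate 2 for 4 of them in both genotypes. The translation factor eIF3, also related to the lid, had 1.76% over 11 genes, and the cytosolic ribosome 9.03% over 78. Short lists reach a higher share than long ones from the same scatter, and all genes share the 6 libraries, so these shares are descriptions. Without the block edgeR called 0 genes of these complexes (at an unadjusted p under 0.05, 2 of the CCT and 2 of the ribosome), and DESeq2 called the ribosomal gene rps-0 higher. Of all tested genes 12.1% passed that unadjusted threshold, and DESeq2 called 1.93% of its genes higher. With the block in edgeR cct-7 rose (log2 fold change 0.48 ± 0.10 SE, adjusted p = 0.043, edgeR) and csn-2 fell (-0.48 ± 0.077 SE, adjusted p = 0.0227). DESeq2 with the block called these and also cct-2 and cct-6 higher and rpl-41.1 lower. Over all genes, edgeR with the block called 2.57% higher and 1.45% lower, and DESeq2 with it 6.35% and 6.52%.

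Of the markers of embryonic stage, the early zygotic and maternal lists were on average also highest in replicate 2 in both genotypes. The list of late embryonic muscle and pharynx was not, and 0 of its 8 genes had that pattern. The early zygotic genes that could be tested (9 of 11 listed) were all highest in replicate 2 in both genotypes, with mean deviations in replicates 1, 2 and 3 of 0.27, 0.76 and -0.46 for single mutants and of -0.25, 0.34 and -0.66 for double mutants. Their summed level ran from 310.2 to 614 CPM in the single mutants and from 229 to 508 CPM in the double mutants. Of 9 maternal RNAs 8 were highest in replicate 2 in both genotypes, and their sum ran from 472 to 745 CPM and from 388 to 721 CPM. Without the block edgeR called 0 of these genes (0 early zygotic and 1 maternal at an unadjusted p under 0.05) and DESeq2 0, and with it in edgeR 1 early zygotic gene, vet-6 (-0.45 ± 0.081 SE, adjusted p = 0.0313, edgeR), and 1 maternal RNA, nos-2 (-0.69 ± 0.13 SE, adjusted p = 0.0386), fell. DESeq2 with the block called 2 early zygotic genes and 3 maternal RNAs lower. Over all genes tested, 1.45% were called lower with the block in edgeR and 6.52% in DESeq2. At an unadjusted p under 0.05, 12.1% passed in edgeR without the block.

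The log2 fold changes of the 9 early zygotic genes and 9 maternal RNAs tested were all below 0, with medians of -0.40 and -0.24. All 8 genes of late embryonic muscle and pharynx ran the other way between genotypes, with a median of 0.76. Their sum over 8 genes was 2178 to 3310 CPM in the single mutants and 3159 to 6355 CPM in the double mutants, highest in double mutant replicate 1. With the block 6 of 8 rose in edgeR (2.57% of all tested genes did), namely myo-1, myo-2, unc-22, tnt-4, myo-3 and unc-15. Without it edgeR called 0 (5 of 8 at an unadjusted p under 0.05, beside 12.1% of all tested genes). DESeq2 without the block called myo-1 and tnt-4, and with it the same 6 genes as edgeR. Of all genes it tested, 1.93% and 6.35% were called higher in those fits. The pharyngeal myosin gene myo-1 was at 136.6, 103.7 and 74.4 CPM in the single mutants and 431, 210.4 and 235.0 CPM in the double mutants (blocked log2 fold change 1.45 ± 0.14 SE, adjusted p = 0.00575, edgeR). Genes of the adults were low, and their sum was higher in the double mutants: 7 yolk and cuticle genes summed to 1.33 to 2.26 CPM in the single and 3.65 to 4.15 CPM in the double mutants, with col-19 at 0 counts in all single mutants. The groups did not overlap for 4 of the 6 tested (18.5% of all tested genes), all higher in the double mutants (10.6% of all tested genes). In edgeR 0 were called in either fit, and 4 had an unadjusted p under 0.05 in each. Of all tested genes 12.1% passed that unadjusted threshold without the block, and 4255 of 17365 did with it. DESeq2 without the block called col-19 and vit-3 higher (1.93% of all genes it tested). A set of 7 sperm genes summed to 0.459 to 1.1 CPM and 0.669 to 0.786 CPM. Only 2 of them, msp-31 and spe-9, passed the filter on low counts, and edgeR called 0 in either fit. DESeq2 also called 0, and gave msp-31 no adjusted p in the fit with the block. Whether the stage of the embryos has a part in the subunit profile or in the differences between genotypes was not tested.

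**Figure D5:**
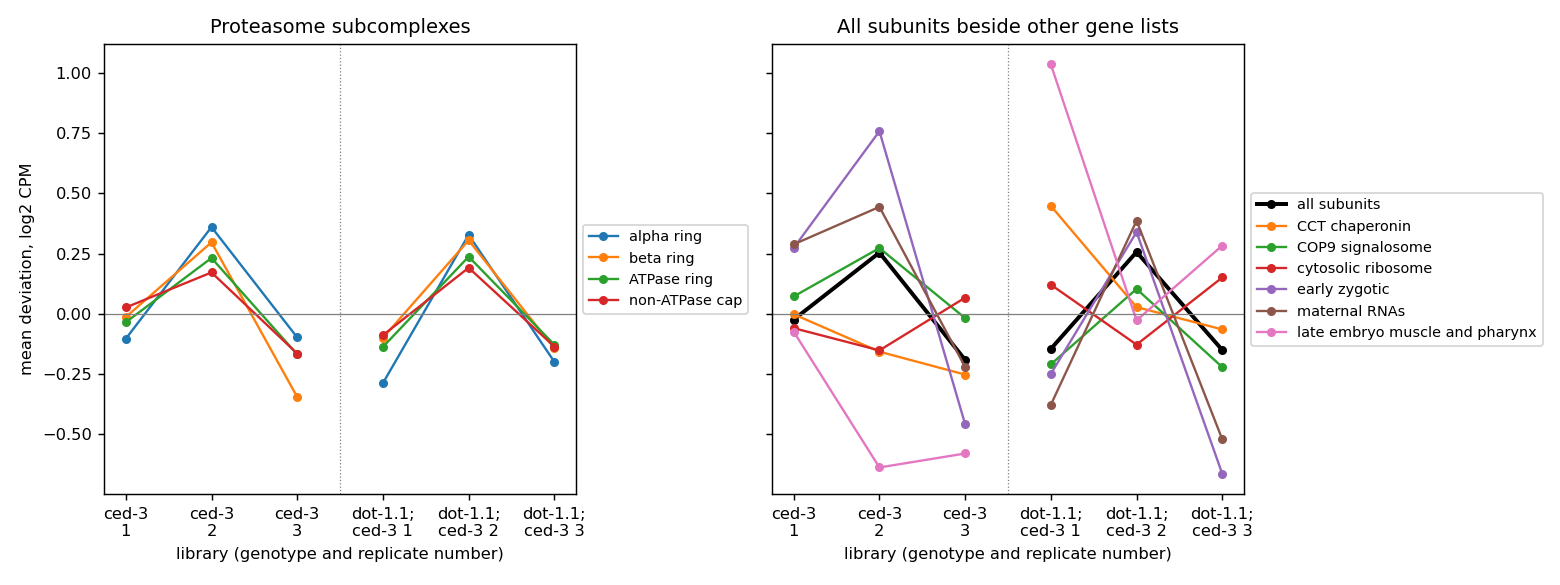
Mean deviation in log2 CPM from each gene's own mean, by library, for the parts of the proteasome (left) and for all 31 subunits (black) beside other complexes and stage marker lists (right). The 4 parts peak together in replicate 2 of both genotypes, as do the early zygotic and maternal lists with wider swings, whereas the CCT and muscle lists peak in double mutant replicate 1.

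The genes that feed and serve the proteasome were read from a list of 77, all of which were tested. Without the block edgeR called 0 of 77, at an unadjusted p under 0.05 there were 2 (12.1% of all tested genes), and DESeq2 called 0. With the block in edgeR 0 rose and 3 fell (3 of 77), where 2.57% of all tested genes rose and 1.45% fell. Either way, 4.01% of all tested genes passed in that fit. Adding the block to DESeq2 gave 0 rising partners and 5 falling ones, those 3 and skr-2 and ufd-1. Among all genes in that DESeq2 fit, 6.52% fell and 6.35% rose, so the falling share of the partners was near the background there. Of the 4 genes for ubiquitin and its activation neither tool called any in either fit, and all 4 estimates were above 0. The polyubiquitin gene ubq-1 was the most abundant, at 1454, 1289.6 and 1546 CPM in the single mutants and 1929.9, 1823 and 1606 CPM in the double mutants. Its groups did not overlap, and the difference did not pass in either fit (blocked log2 fold change 0.32 ± 0.11 SE, adjusted p = 0.125, edgeR). The activating enzyme gene uba-1 was higher in all 3 pairs as well (0.19 ± 0.095 SE, adjusted p = 0.258 with the block).

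Of 18 conjugating enzymes (E2) neither tool called any in either fit, with a median log2 fold change of -0.03. The pair with the smallest p in the fit without the block was ubc-16 and ubc-7, at -0.21 ± 0.14 SE and -0.21 ± 0.17 SE. Among 17 cullins and core ligase parts 1 fell with the block in edgeR, rbx-1, which encodes the RING subunit that cullins share. It was at 87.6, 110.6 and 69.2 CPM in the single mutants and 63.7, 85.6 and 51.1 CPM in the double mutants, lower in 3 of 3 pairs with groups that overlapped (blocked log2 fold change -0.42 ± 0.081 SE, adjusted p = 0.0359, edgeR). In the anaphase promoting complex, the ligase that drives exit from mitosis, 11 of 12 estimates were below 0 and 1 gene fell with the block in edgeR, the RING subunit gene apc-11. Its level was 30.5, 52.8 and 28.6 CPM against 24.1, 37.1 and 19.7 CPM (-0.46 ± 0.10 SE, adjusted p = 0.0465, edgeR). Both genes were highest in replicate 2 in both genotypes, as the subunits were.

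Of 8 deubiquitinases, shuttles and minor subunits bound to the proteasome, ddi-1 fell with the block. It encodes the protease that cuts and thereby activates the SKN-1 form that acts on proteasome genes, and it was at 90.3, 110.8 and 84.2 CPM in the single mutants and 68.8, 88.6 and 65.6 CPM in the double mutants (-0.36 ± 0.08 SE, adjusted p = 0.0496, edgeR). None of rbx-1, apc-11 and ddi-1 passed in the blocked fit when pair 1 or pair 3 was left out (adjusted p from 0.20 to 0.265). Their log2 fold changes there were -0.41 and -0.39 for rbx-1, -0.53 and -0.40 for apc-11, and -0.35 and -0.33 for ddi-1, and over all genes 11 and 181 were called in those fits. All 3 passed without pair 2 (0.00285 to 0.0285). Among 12 genes of the CDC-48 unfoldase, which extracts ubiquitin-marked proteins, and its adaptors edgeR called 0 in either fit (1 at an unadjusted p under 0.05 without the block and 3 with it). Of all tested genes 12.1% passed that unadjusted threshold without the block, and 4255 of 17365 did with it. DESeq2 called 0 without the block, and with it ufd-1 lower (adjusted p = 0.0252), where 6.52% of all genes it tested were called lower. The smallest p in edgeR were those of ufd-1 (blocked -0.36 ± 0.089 SE, adjusted p = 0.0637) and ufd-2 (-0.22 ± 0.084 SE, adjusted p = 0.165, edgeR).

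The transcription factor gene skn-1 was at 203.9, 164.1 and 163.0 CPM in the single mutants and 192.0, 173.8 and 198.8 CPM in the double mutants. The groups overlapped, the replicate 2 libraries were not the highest, and the difference did not pass (log2 fold change 0.09 ± 0.13 SE, adjusted p = 0.795, and 0.578 with the block, edgeR). Of the 6 genes of SKN-1 activation and of degradation from the endoplasmic reticulum, to which it was counted, neither tool called any in either fit. The pair with the smallest p were sel-11, a ligase gene, at -0.16 ± 0.13 SE, and aip-1, at 0.20 ± 0.24 SE without the block.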

How the data were processed

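Total RNA of embryos was depleted of ribosomal RNA and made into strand-specific libraries, per the labels' protocols. The authors deposited 1 table with the raw read count of each gene. HISAT2 2.0.5, StringTie and build WBcel235 are named in the submitters' processing notes. No source used here gives the counting program, annotation release, strand setting or treatment of multiply mapped reads. Each of the 6 columns was matched to its sample by the sample's description. Rows were matched by sequence name to the Ensembl release 115 annotation of WBcel235, which gave 46180 of 46659 rows 1 gene each. Unmatched rows stayed in.

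The test was that of edgeR 4.0.16 (R 4.3.3, filterByExpr, TMM scaling, robust quasi-likelihood test), double against single mutants, two-sided, with Benjamini-Hochberg adjustment over the 17365 genes tested and a threshold of 0.05. The pipeline was run on simulated counts that varied less between libraries than these data, so that run does not show which differences would be found here. CPM values include the TMM factors, and deviations use log2 CPM with a prior count of 2. Each SE is the size of the edgeR log2 fold change divided by the square root of the F statistic of its test. Intervals are 95% intervals from this SE. No batch is named in the labels, so the first fit has no block. The correlations of deviations exceeded 0.1 for all 3 same-numbered pairs, and the numbers were therefore taken to pair the samples, which is limited evidence. Replicates of 1 genotype differed well beyond sampling noise (chi-square per degree of freedom 98.0 to 190.3). The labels are the only source for calling them biological replicates. DESeq2 1.42.0, other scalings, no filter, the block and left-out libraries were tried as alternatives. Members and lists were chosen with earlier results of these data known. Named beside the subunits are the genes of each other list called in either fit, or else the 2 with the smallest p, with skn-1, dot-1.1 and ced-3 (which did not pass: log2 fold change 0.04 ± 0.16 SE, adjusted p = 0.927, edgeR).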

Additional observations from a re-analysis of the deposited data

How the results depend on the processing

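Over all genes the number called was 14 in edgeR without the block. It was 26 with library totals only, 461 with DESeq2, 4 without the filter on low counts, 697 with the replicate block in edgeR and 1884 with the replicate block in DESeq2. Leaving out 1 library at a time gave 1 to 43. With the replicate block and 1 pair left out, alternatives added after the data were seen, 11 genes passed when pair 1 was dropped, 2476 for pair 2 and 181 for pair 3. Of the subunits 0 were called in edgeR without the block. The count was also 0 with RLE size factors, library totals, DESeq2 without the block, no filter and each library left out. The replicate block gave 1 in edgeR, 1 in DESeq2 and 1 without pair 2 (pbs-5 in edgeR and DESeq2 with all pairs), and 0 without pair 1 or pair 3. Partner genes called went from 0 to 3 with the replicate block in edgeR, 5 with it in DESeq2 and 6 without pair 2. The variance share of the common profile was 59.7%, 72.9% without pas-1, 19% with the replicate means removed, and 51.1% to 68.1% with 1 library left out. Medians of the subunits and of each ring stayed within 0.26 of 0 in log2 fold change, and most of their signs turned when single libraries were left out or library totals were used.

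Among the 63 genes named, 756 values were recomputed: 717 kept their call and direction (78 of them with a change of sign smaller than the SE of an uncalled value) and 35 passed where they had not, all with the block or DESeq2. The other 4 turned sign: pas-2 without double mutant replicate 2 (-0.25 to 0.19 with 1 library left out), rpn-10 to 0.18 without single mutant replicate 2 (-0.15 to 0.18), aip-1 without double mutant replicate 1 (-0.099 to 0.40) and msp-31 to 0.65 without single mutant replicate 3 (-0.72 to 0.65). The cause was not tested. With 3 libraries per genotype and no block, the 95% interval of the fold change lay within 1.5-fold for 27 of 31 subunits, so a difference of that size is not outside the interval of the others.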
